A study of Homo sapiens with 9 samples.

Results

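The untreated contact landscape of 20 active promoters was described from the 3 libraries of DMSO-treated HCT-116 MED14-dTAG cells, out of 9 libraries in the series. HCT-116 cells are an established line from a human colorectal carcinoma. In the MED14-dTAG line, MED14, a subunit of Mediator, carries a tag through which an added dTAG ligand leads to its degradation, and whether the line is 1 clone is not given in the sources used here. The 3 libraries received only the solvent DMSO, so that MED14 was tagged but not targeted in all of them, and the libraries with dTAG ligand, alone or with I-BET, were not used. Interactions were measured by Capture-C, in which crosslinked chromatin is cut with DpnII, ligated in proximity and enriched for fragments at chosen promoters, the viewpoints. The 20 genes had been selected by the study as active, bound by Mediator, lower after its depletion and associated with a super-enhancer, and they do not stand for promoters in general. Fragments were used when their midpoint lay on the chromosome of the viewpoint, at a distance over 10 kb, and at most 500 kb, from its transcription start site in hg38.

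An enhancer can act on a promoter over long distances, and both come close in the folded chromatin fiber. Contact frequency falls with distance along the fiber. Cohesin, a ring complex of which SMC1A is a subunit, extrudes loops of chromatin, and CTCF bound in an orientation that faces the loop halts this process, which partitions chromosomes into domains. Super-enhancers are clusters of enhancers with high occupancy by Mediator and other coactivators, and AP-1 (FOS and JUN dimers) and TCF/LEF (the factors of Wnt signaling) are among the factors that bind enhancers in colorectal epithelium.

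The deposited signal counts interactions of a DpnII fragment with the viewpoint. It is scaled so that the total on the viewpoint's own chromosome is about the same for every viewpoint and library (925205 to 967001). With other chromosomes included, the total ran from 1241426 (IRS1, replicate 2) to 1789516 (ANGPT2, replicate 3). Signal per kb is thus relative to the signal of a viewpoint on its own chromosome. On the viewpoint's own chromosome, 11831 to 60189 interactions per viewpoint and library stood behind the signal (median 32073), and 5219 to 26470 of them (over the same viewpoints and libraries) lay from 10 to 500 kb. Over 1960 bins of 10 kb, 98 around each promoter, the Pearson r between libraries was 0.976 to 0.989 for signal per kb. These bins share the decay with distance, and after correction for it r was 0.910 to 0.939. Replicate 3 stood somewhat apart from replicates 1 and 2, and its values are named beside the results they touch most. The methods state that the replicates are biologically independent, but the columns mark them TR, letters that could also stand for technical replicates, and all p-values measure the spread between these 3 libraries.

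Signal fell with distance at all 20 promoters, but at very different rates. The decay was summarized as the exponent of signal against distance, the slope of a line through log2 signal per kb plus 1 in 12 rings of distance, so that a value closer to 0 is a flatter decay. The mean exponent over the 20 promoters was −0.72. The decay was steepest at ANGPT2, which encodes a secreted ligand of the endothelial receptor TIE2, with −1.07, −1.07 and −0.99 in replicates 1, 2 and 3. It was flattest at PHLDA1, which encodes a cytoplasmic protein induced by growth factors, with −0.39, −0.39 and −0.36. The order of the 2 promoters reversed along the window. From 10 to 20 kb the signal per kb was 2622 ± 232 at ANGPT2 and 1564 ± 81.1 at PHLDA1 (mean ± SD, n = 3 here and below). From 200 to 500 kb it was 103 ± 5.70 and 454 ± 11.8, and no library of one promoter overlapped those of the other. The signal thus fell 25.5-fold between these bands at ANGPT2 and 3.45-fold at PHLDA1.

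**Figure D1:**
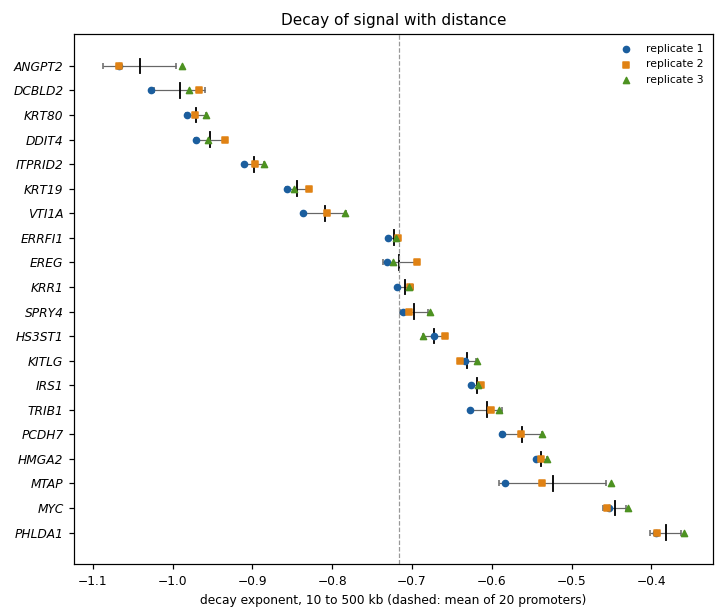
The decay exponent of signal from 10 to 500 kb for each promoter (rows, ordered from steep to flat) in each DMSO replicate (points), with the mean (bar) and SD (whiskers, n = 3), and the mean of the 20 promoters as a dashed line. The exponents run from −1.04 at ANGPT2 to −0.38 at PHLDA1, and replicates of a promoter lie close together.

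In limma fits against the mean of the 20 promoters, 7 promoters (35% of those tested) had a steeper and 10 (50%) a flatter decay at an adjusted p under 0.05. With rings of equal width, 10 kb, 10 were steeper and 8 flatter, and with signal beyond 25 kb 8 and 9. Besides ANGPT2, the steeper decays were those of DCBLD2, a transmembrane receptor (−0.99 ± 0.032), the epithelial keratin gene KRT80 (−0.97 ± 0.012), DDIT4, a stress-induced inhibitor of mTORC1 (−0.95 ± 0.019), ITPRID2 (−0.90 ± 0.013), the keratin gene KRT19 (−0.84 ± 0.014) and VTI1A, a SNARE protein of vesicle transport (−0.81 ± 0.026). Besides PHLDA1, the flatter decays included those of the transcription factor gene MYC (−0.45 ± 0.014), the methionine salvage gene MTAP (−0.52 ± 0.067), the architectural chromatin protein gene HMGA2 (−0.54 ± 0.0069) and PCDH7, a protocadherin of the cell surface (−0.56 ± 0.025). TRIB1, a pseudokinase (−0.61 ± 0.019), IRS1, an adaptor of the insulin receptor (−0.62 ± 0.0066), the KIT ligand gene KITLG (−0.63 ± 0.011), HS3ST1, a heparan sulfate sulfotransferase (−0.67 ± 0.014), and SPRY4, a feedback inhibitor of receptor tyrosine kinases (−0.70 ± 0.018), completed this group. ERRFI1, an inhibitor of the EGF receptor, EREG, a ligand of that receptor, and KRR1, a ribosome biogenesis factor, were within 0.01 of the mean, and their differences did not pass the test (limma adjusted p = 0.55, 0.995 and 0.38), although ERRFI1 was called steeper in 10-kb rings (−0.22 relative to the mean, adjusted p = 1.15e-05) and beyond 25 kb (−0.12, adjusted p = 6.8e-09).

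The SD between promoters, 0.187, was 9.93 times the SD between libraries of a promoter after library means were removed, 0.0189. Along the order of exponents, 12 of the 19 neighboring pairs were ordered alike in all 3 libraries. The pairs that were not included DCBLD2 with KRT80, IRS1 with TRIB1, and HMGA2 with MTAP. SPRY4 lay close to the mean (0.019 flatter), and without any 1 of the replicates the difference stayed at 0.016 to 0.023 but did not pass the test (limma adjusted p = 0.076 to 0.20). In 10-kb rings both SPRY4 (−0.091 relative to the mean, adjusted p = 0.00033) and TRIB1 (−0.089, adjusted p = 0.0013) were called steeper, so that the flatter call of TRIB1 (adjusted p = 7.0e-09) was reversed there. At MTAP replicate 3 was flatter (−0.45) than replicates 1 and 2 (−0.58 and −0.54).

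The distance within which 50% of the signal from 10 to 500 kb lay gave a broadly similar order of promoters, with exceptions. It was 69.2 ± 2.16 kb at DDIT4, 71.5 ± 2.57 kb at DCBLD2 and 81.7 ± 2.63 kb at ANGPT2. It was 186 ± 15.7 kb at MYC and 186 ± 26.7 kb at MTAP, 196 ± 14.2 kb at KITLG and 224 ± 10.8 kb at PHLDA1. No library of the first 3 promoters overlapped any of the last 4. KITLG had a longer mean distance than MYC and MTAP, although their decays were flatter. DDIT4 had a shorter one than ANGPT2, although the decay of ANGPT2 was steeper. By role, the 2 genes of nuclear regulators, MYC and HMGA2, had exponents of −0.45 and −0.54, whereas the 6 genes of signaling regulators ran from −0.95 at DDIT4 to −0.38 at PHLDA1, and the secreted ligands from −1.04 at ANGPT2 to −0.63 at KITLG.

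The share of a viewpoint's signal on its own chromosome that fell from 10 to 500 kb ran from 37.7% ± 2.17 at KRR1 to 55.8% ± 2.99 at TRIB1. In limma fits of the log2 share against the mean of the 20, 7 promoters (35%) had a larger share: TRIB1, HMGA2 (53.2% ± 1.01), ERRFI1 (53.1% ± 0.707), PHLDA1 (53.1% ± 1.31), SPRY4 (51.1% ± 1.19), KRT80 (49.6% ± 1.37) and EREG (47.5% ± 1.28). A smaller share was found at 8 promoters (40%), namely KRR1, ANGPT2 (39.0% ± 2.17), MYC (39.1% ± 3.92), VTI1A (40.3% ± 4.66), DCBLD2 (40.5% ± 1.35), ITPRID2 (42.5% ± 3.01), HS3ST1 (43.5% ± 2.23) and IRS1 (43.6% ± 1.14). KITLG, DDIT4, KRT19, PCDH7 and MTAP did not pass the test. A flat decay and a large share did not go together at every promoter: PHLDA1 combined the flattest decay with a large share, whereas MYC combined the next flattest decay with 1 of the smallest shares. Shares were lower in replicate 3 than in replicate 1 at all 20 promoters, by most at VTI1A (34.9% against 43.3% and 42.7%) and MYC (34.6% against 41.8% and 40.8%). Without replicate 3, KITLG, KRT19 and PCDH7 were called smaller and DDIT4 larger (limma adjusted p = 0.00016, 0.031, 0.032 and 0.027). Without replicate 1 or replicate 2, EREG, IRS1 and HS3ST1 did not pass the test (adjusted p = 0.077 to 0.28), although their log2 differences from the mean, 0.088 and 0.058 at EREG, −0.053 and −0.048 at IRS1, and −0.060 and −0.072 at HS3ST1, remained near those with all libraries (0.065, −0.059 and −0.062). The calls also depended on the denominator. As a share of all signal, other chromosomes included, IRS1 was called larger (log2 0.21, adjusted p = 7.6e-06), as were KITLG and PCDH7, DDIT4 and KRT19 were called smaller, and KRT80, VTI1A, EREG, HS3ST1 and ITPRID2 had no call (adjusted p = 0.43, 0.090, 0.052, 0.23 and 0.80).

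Every promoter had more signal on one side than on the other. Sides were defined by the direction of transcription, upstream being before the start site, and the signal from 10 to 500 kb was compared between sides within each library. In limma fits of log2 upstream over downstream signal, 14 promoters (70%) had more signal upstream and 6 (30%) more downstream, so that none of the 20 was left without a call at an adjusted p under 0.05. HMGA2 held 838, 795 and 729 signal per kb upstream in replicates 1, 2 and 3 and 221, 222 and 298 downstream. ERRFI1 held 801, 770 and 767 upstream and 239, 245 and 243 downstream. Both were thus 3.22-fold and 3.21-fold higher upstream, with log2 ratios of 1.69 ± 0.34 and 1.68 ± 0.052 (SD, n = 3), and their upstream and downstream libraries did not overlap. The 2 promoters differed in how well the libraries matched: replicate 3 was lower than replicates 1 and 2 at HMGA2 (1.29 against 1.93 and 1.84), but not at ERRFI1.

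At the other end of the order were promoters facing downstream. PHLDA1 held 287, 259 and 275 signal per kb upstream and 780, 754 and 743 downstream, a log2 ratio of −1.47 ± 0.061. PCDH7 had a ratio of −1.36 ± 0.12, and 42 of its 49 downstream bins lay in its own gene of 426 kb. IRS1 (−1.02 ± 0.077) and EREG (−0.61 ± 0.090) followed, and MYC (−0.38 ± 0.13) and KRT19 (−0.14 ± 0.038) were closest to balance on this side. Between these ends, ITPRID2 (1.07 ± 0.095), KRT80 (1.00 ± 0.15) and KITLG (1.00 ± 0.22) had more signal upstream, and HS3ST1 (0.88 ± 0.13), MTAP (0.82 ± 0.20), ANGPT2 (0.73 ± 0.16), KRR1 (0.72 ± 0.019) and VTI1A (0.71 ± 0.11) somewhat less. SPRY4 (0.56 ± 0.20), DDIT4 (0.55 ± 0.020), DCBLD2 (0.31 ± 0.19) and TRIB1 (0.30 ± 0.11) were closest to balance on the upstream side.

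**Figure D2:**
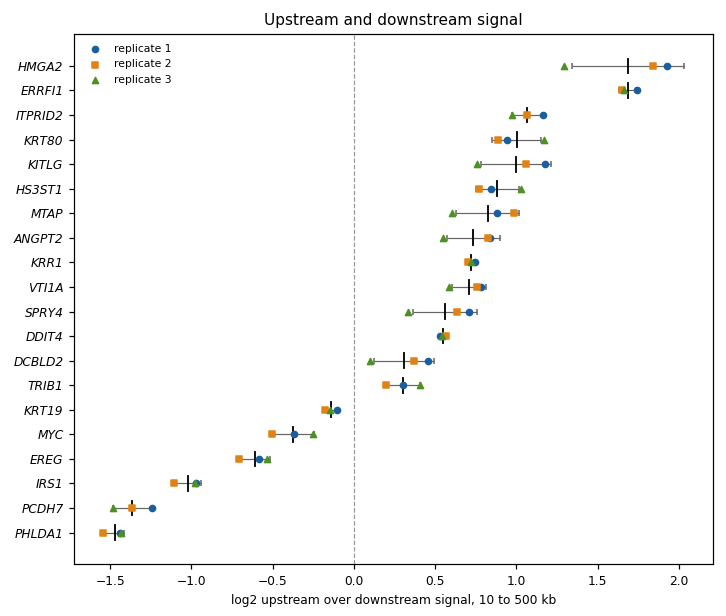
The log2 ratio of upstream over downstream signal from 10 to 500 kb for each promoter in each DMSO replicate (points), with the mean (bar) and SD (whiskers, n = 3), and equal sides as a dashed line at 0. All 3 points of every promoter lie on the same side of 0, from 1.69 at HMGA2 to −1.47 at PHLDA1.

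The SD between promoters in this ratio was 0.911, or 6.21 times that between libraries, here without removal of library means. The calls closest to the threshold did not pass the test with fewer libraries, although the ratios kept their side. KRT19 was at −0.16 and −0.13 without replicate 1 or 2 (limma adjusted p = 0.19 and 0.091), DCBLD2 at 0.23 and 0.28 (0.069 and 0.16), and SPRY4 at 0.52 without replicate 2 (0.065). Replicate 3 was the lowest library at DCBLD2 (0.098 against 0.46 and 0.37), SPRY4 (0.33 against 0.71 and 0.64) and KITLG (0.76 against 1.18 and 1.06). Within 200 kb KRT19 had more signal upstream (0.29), and EREG was balanced (−0.036). The size of the difference grew with distance. Its median over promoters was 0.24 on the log2 scale from 10 to 20 kb, 0.42 from 20 to 50 kb, 1.02 from 50 to 100 kb, 1.17 from 100 to 200 kb and 1.33 from 200 to 500 kb, without regard to sign. At 7 promoters (DCBLD2, DDIT4, EREG, KRT19, MYC, SPRY4 and VTI1A) some band had more signal upstream and another more downstream, each in all 3 libraries. At KRT19 the log2 ratio was 0.66 ± 0.16 from 10 to 20 kb and −1.52 ± 0.11 from 200 to 500 kb. At EREG it was 0.65 ± 0.24 and −1.84 ± 0.19, so that signal near the start site lay upstream and distant signal downstream. DDIT4 ran the other way, from −0.16 ± 0.063 at 10 to 20 kb to 2.15 ± 0.16 at 100 to 200 kb and 1.47 ± 0.083 beyond. DCBLD2 had 1.76 ± 0.32 from 50 to 100 kb and −1.24 ± 0.092 from 200 to 500 kb. SPRY4 went from −0.11 ± 0.051 in the innermost band to 1.15 ± 0.074 in the outermost. At MYC and VTI1A 1 band departed from the others, with 0.061 ± 0.026 from 20 to 50 kb and −0.093 ± 0.085 from 10 to 20 kb.

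Long genes did not share a pattern on the side of their gene body. Over the bins that overlapped the own gene, the mean log2 of signal over that expected at the distance (defined next) was 0.58 at PCDH7 (426 kb, 42 bins), −0.98 at VTI1A (372 kb, 37 bins), −1.13 at HMGA2 (142 kb, 14 bins), −1.16 at MTAP (135 kb, 13 bins) and −0.35 at DCBLD2 (106 kb, 10 bins). PCDH7 was the only one of these 5 with a mean above 0, and its 3 libraries (0.56, 0.64 and 0.54) were all above those of the others. Downstream bins beyond the gene had means of 0.31 at PCDH7, −0.26 at VTI1A, −1.15 at HMGA2, −0.071 at MTAP and −0.55 at DCBLD2. Bins inside and beyond the gene thus differed most at MTAP and VTI1A.

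To find the strongest contacts beyond the decay with distance, each 10-kb bin was compared with the mean of all 20 promoters and both sides at the same distance in the same library. A bin was called above or below this expected signal when limma gave an adjusted p under 0.05 and the mean log2 ratio was at least 1 or at most −1. Of 1960 bins, 152 (7.76%) were above and 500 (25.5%) below. By the adjusted p alone, without the limit on the ratio, 595 bins (30.4%) were above and 983 (50.2%) below. The limit on the ratio thus decided most calls, and the p-values test any difference from expected, not one of that size. The expected signal was a mean, and with the median in its place 283 bins were above and 330 below, and all 152 bins were among the 283. Against the promoter's own decay 263 bins were above and 247 below, and these held 126 of the 152 bins above (82.9%) and 223 of the 500 bins below (44.6%). Upstream of the start sites 95 bins were above and 198 below, and downstream 57 and 302, of 980 bins on each side. Since the expected signal was taken from these 20 promoters and both sides, a call says that a bin ranked high or low among them. The counts by side thus partly restate the differences between upstream and downstream signal.

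**Figure D3:**
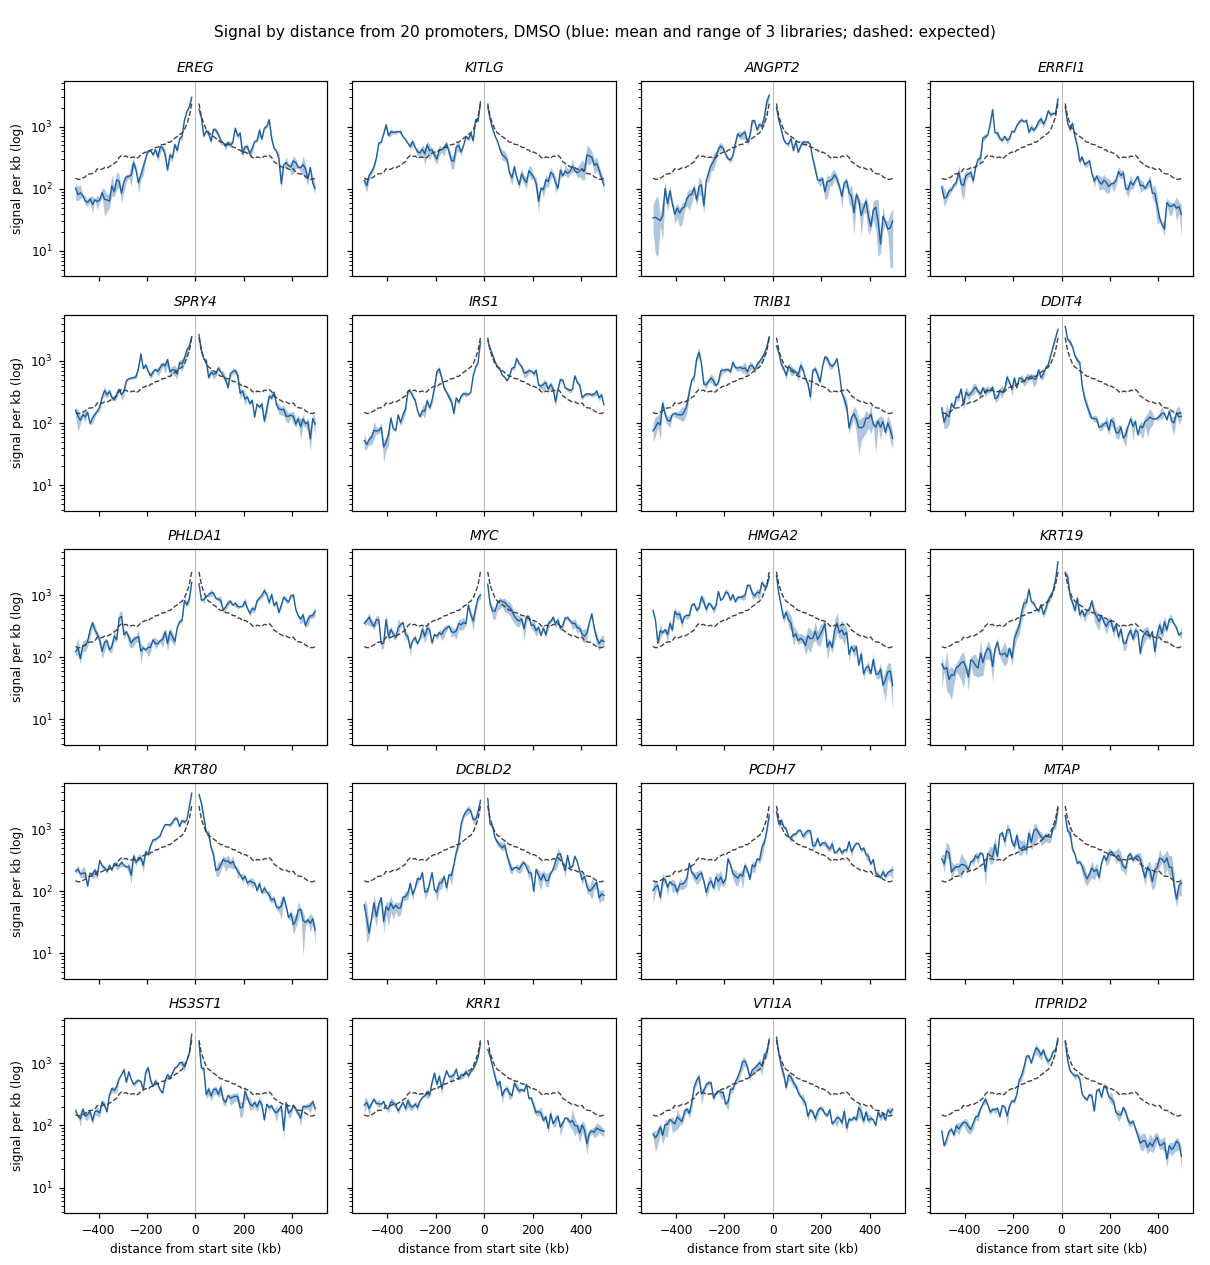
Signal per kb in 10-kb bins (log axis) against distance from the start site, upstream negative, for each of the 20 promoters. The blue line and band are the mean and the range of 3 DMSO libraries, and the dashed line is the mean of all promoters at that distance. PHLDA1 stays above the dashed line over most of its downstream side, DDIT4 falls below it beyond 80 kb downstream, and the distant signal of ANGPT2 lies below it on both sides.

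The bins above were spread unevenly, in 46 runs of adjacent bins (contact regions) at 17 promoters. PHLDA1 had 27 such bins among its 98, HMGA2 22, ERRFI1 17, and KITLG and TRIB1 12 each, against the background of 7.76%. MYC had 8, EREG, ITPRID2 and MTAP 7 each, KRT19 and KRT80 6 each, PCDH7 5, SPRY4, IRS1 and DCBLD2 4 each, HS3ST1 3 and VTI1A 1. ANGPT2, DDIT4 and KRR1 had none. Their highest bins reached log2 ratios of 0.93, 0.95 and 0.82. At 10 promoters all bins above lay upstream, at 3 all lay downstream, and at 4 they lay on both sides. The expected signal was the same for all promoters and both sides. The counts by promoter and side therefore partly restate the differences in decay, share and side given above.

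The strongest contact was that of ERRFI1 with the bin 280 to 290 kb upstream (chr1:8306310-8316309), which held 1803, 1703 and 2120 signal per kb in replicates 1, 2 and 3 where 337 was expected. This was 5.52-fold above expected (log2 2.47 ± 0.055 SE, limma adjusted p = 7.5e-15). The next bin of the same contact region, 290 to 300 kb upstream, holds the start site of SLC45A1 and had a log2 ratio of 1.71. KITLG followed with 1119, 966 and 1146 signal per kb in the bin 400 to 410 kb upstream (chr12:88980472-88990471, expected 211), a 5.08-fold excess (log2 2.35 ± 0.071 SE, adjusted p = 3.7e-13). Here the bin was the summit of a broad contact region of 12 bins, from 320 to 440 kb upstream, in which no protein-coding gene is annotated and which held 21.4% ± 0.494 of all KITLG signal from 10 to 500 kb.

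The broadest contact region was that of PHLDA1, 25 bins from 250 to 500 kb downstream with 35.7% ± 1.12 of its signal. Its summit at 390 to 400 kb (chr12:75631776-75641775) held 913, 1014 and 1003 signal per kb where 203 was expected (log2 2.26 ± 0.072 SE, adjusted p = 6.6e-13). This stretch reaches almost to KRR1, the start site of which lies 520 kb away, and both promoters could be compared over the same sequence (chr12:75531776-75831776). PHLDA1, at 200 to 500 kb, held 713, 695 and 705 signal per kb there. KRR1, at 20.2 to 320 kb, held 572, 544 and 497. On this scale the more distant promoter was thus the one with more signal, and its libraries did not overlap those of KRR1. The scale is each viewpoint's own-chromosome signal, of which the window from 10 to 500 kb held 53.1% at PHLDA1 and 37.7% at KRR1. Relative to distance, 26 of 30 bins were above expected at PHLDA1 and none of 30 at KRR1.

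TRIB1 had contact regions on both sides. Upstream, the bin at 300 to 310 kb (chr8:125120358-125130357), in the gene NSMCE2, held 1323, 1154 and 1684 signal per kb where 347 was expected (log2 1.98 ± 0.082 SE, adjusted p = 4.9e-12). Downstream, a region of 8 bins from 200 to 280 kb held 13.7% ± 0.378 of its signal and peaked at a log2 ratio of 1.76. HMGA2 had bins above expected only upstream, in 9 contact regions from 90 to 500 kb. The highest, at 490 to 500 kb (chr12:65324483-65334482) in the gene MSRB3, held 604, 513 and 588 signal per kb where 148 was expected (log2 1.93 ± 0.094 SE, adjusted p = 2.9e-11), and as the last bin of the window its outer limit was not seen.

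EREG reached 1184, 1404 and 1324 signal per kb at 300 to 310 kb downstream (chr4:74665146-74675145, expected 347), a 3.74-fold excess (adjusted p = 1.3e-12). SPRY4 reached 1329, 1341 and 1217 at 220 to 230 kb upstream (chr5:142545022-142555021, expected 358), a log2 ratio of 1.85 ± 0.061 SE (adjusted p = 7.5e-13). Neither bin overlaps a protein-coding gene. ITPRID2 reached 2069, 1891 and 1419 signal per kb much closer to its start site, at 100 to 110 kb upstream (chr2:181781730-181791729, expected 565), a log2 ratio of 1.65 ± 0.059 SE (adjusted p = 1.5e-12).

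The last 2 of the 10 highest differed more between libraries. MTAP held 350, 373 and 627 signal per kb at 470 to 480 kb upstream (chr9:21322636-21332635, expected 143), in KLHL9 and next to the bin with its start site, with a log2 ratio of 1.60 ± 0.12 SE (adjusted p = 1.0e-08). Replicate 3 was the highest library there, and 237 interactions stood behind the bin. MYC held 478, 324 and 519 signal per kb at 470 to 480 kb upstream (chr8:127256231-127266230, expected 143), with a log2 ratio of 1.59 ± 0.12 SE (adjusted p = 5.7e-09). Against the promoter's own decay, in place of the mean of all promoters, these 2 bins reached only 0.82 and 0.84 and lost their calls, while the other 8 kept theirs. The highest bins of the remaining 7 promoters had log2 ratios from 1.48 at DCBLD2 (60 to 70 kb upstream) to 1.01 at VTI1A (120 to 130 kb upstream), and the VTI1A bin fell under the limit without replicate 1 or 2 (0.92 and 0.97). Counted per DpnII fragment, the highest bins of PCDH7 (0.92), KRT80 (0.83) and VTI1A (0.82) also fell under it.

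**Figure D4:**
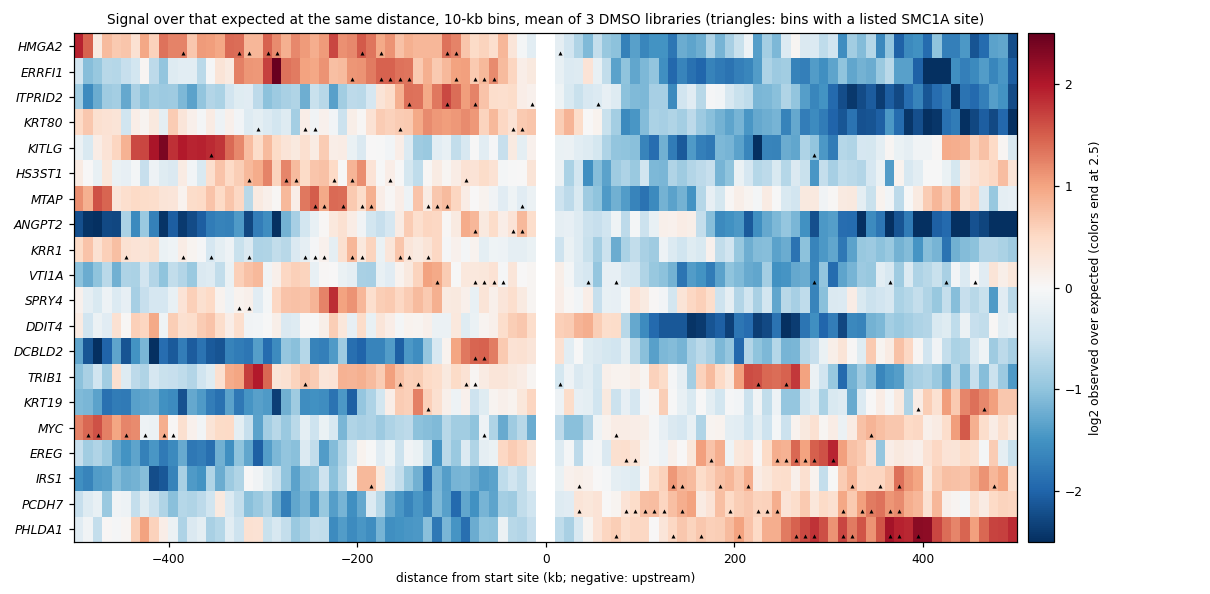
Mean log2 ratio of signal over that expected at the same distance for 10-kb bins (columns) of the 20 promoters (rows, ordered from most upstream to most downstream signal), with red above and blue below, the span within 10 kb of the start site left white, and triangles at bins with a listed SMC1A site. The PHLDA1 row is red from 250 to 500 kb downstream, and the KITLG row from 320 to 440 kb upstream.

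The lowest ratios to expected signal were found at distant bins downstream of 3 promoters. ANGPT2 held 13.4, 16.2 and 9.25 signal per kb at 440 to 450 kb downstream where 172 was expected (log2 −3.67 ± 0.47 SE, limma adjusted p = 2.9e-06), from 12 interactions in all 3 libraries and with only 9 DpnII sites in the bin. ERRFI1 held 31.5, 18.6 and 17.1 at 420 to 430 kb downstream, in CAMTA1, where 177 was expected (log2 −2.97 ± 0.37 SE, adjusted p = 2.2e-06). KRT80 held 40.5, 20.1 and 26.6 at 400 to 410 kb downstream, in the sodium channel gene SCN8A, where 211 was expected (log2 −2.87 ± 0.33 SE, adjusted p = 8.6e-07). At these counts, 12 to 32 interactions, the size of the deficit is known only roughly. Bins below expected were most frequent at ANGPT2 (53 of 98), DCBLD2 (45), ITPRID2 (39), ERRFI1 (37) and KRT80 (36), and least frequent at SPRY4 (5) and HS3ST1 (9). As for the bins above, these counts partly restate the differences in decay, share and side.

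Start sites of other protein-coding genes did not stand out among the strong contacts. They lay in 9 of the 152 bins above (5.92%), in 35 of the 500 bins below and in 7.86% of all bins. The 9 bins held SLC45A1 at ERRFI1, KLHL9 and IFNA5 at MTAP, the keratin genes KRT81 and KRT83 at KRT80, and keratin-associated protein genes (KRTAP4-7, KRTAP2-3 with KRTAP2-4, KRTAP4-16 with KRTAP4-9, and KRTAP2-2) at KRT19. The KRT80 contact region, 70 to 130 kb upstream, thus lay in the type II keratin gene cluster to which KRT80 belongs. Bins above overlapped a protein-coding gene less often than all bins, 23.0% against 43.9%, and 12 of the 17 highest bins lay outside such genes. Adjacent bins are not independent, however, and the broad contact regions of PHLDA1 (25 bins) and KITLG (12 bins) overlap no such gene. These shares were not compared within promoters.

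A different annotation did stand out in these counts. The study lists sites at which occupancy by the cohesin subunit SMC1A was lower after MED14 depletion, and their coordinates served here only to mark bins. Such a site lay in 47 of the 152 bins above (30.9%), in 1 of the 500 bins below (0.20%) and in 145 of all 1960 bins (7.40%). The sites were found by the study in the same cell line, and the genes were chosen for their super-enhancers, so that the marked bins are no random sample. At 19 promoters with at least 1 marked bin, the mean log2 ratio was higher in marked than in other bins at all 19, in each of the 3 libraries, by 0.17 (SPRY4, 2 marked bins) to 2.34 (DCBLD2, 2 marked bins), with a median of 1.15. DDIT4 has no marked bin. At MTAP the difference was 0.88 and 0.98 in replicates 1 and 2 but 0.38 in replicate 3.

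**Figure D5:**
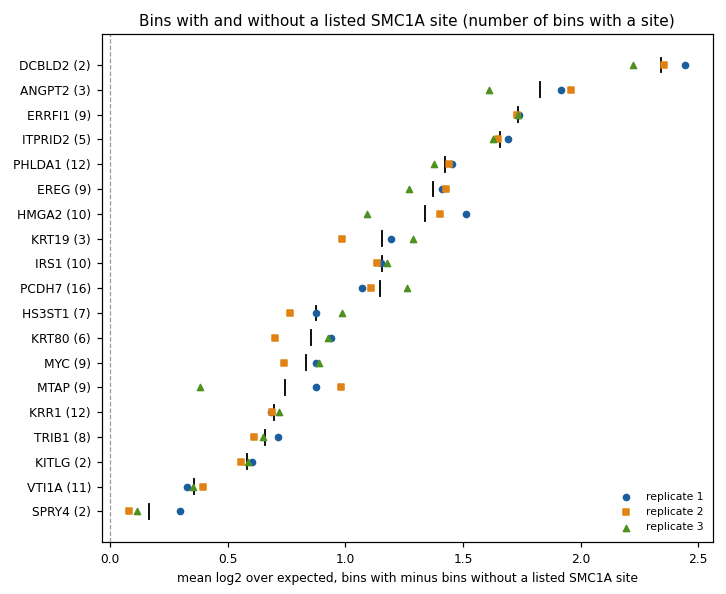
The mean log2 ratio over expected of bins with a listed SMC1A site minus that of the promoter's other bins, for each promoter (rows, with the number of such bins) and DMSO replicate (points), with the mean as a bar and no difference as a dashed line at 0. All points lie above 0, from 0.17 (mean) at SPRY4 to 2.34 at DCBLD2.

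Most marked bins, 124 of 145, lay on the side of the promoter with more signal. Compared with other bins of the same side only, a comparison added after these values were seen, marked bins were higher in all 3 libraries on 24 of 27 sides, with a median difference of 0.55. They were lower upstream of SPRY4 (−0.20) and downstream of KITLG (−0.26), and mixed upstream of KRT80 (−0.058). The difference stayed large on the upstream side of DCBLD2 (2.72), where the marked bins at 60 to 80 kb lay in a contact region with 19.7% ± 1.44 of the DCBLD2 signal, and it was small upstream of KRR1 (0.16). KRR1 and PHLDA1 share their marked sites, which were thus counted for both.

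The letters of these sites were set against those of windows of the same length, 401 bases, tiled over all 1960 bins. Sites marked around both KRR1 and PHLDA1 were counted once, which left 141 sites, whereas windows in their shared stretch were counted for both. The AP-1 motif TGANTCA, which reads the same on both strands, was found in 82 of 141 sites (58.2%) and in 13.1% of 47040 windows. Among the 54 sites in bins above expected it was found in 29 (53.7%), a share no higher than that of all sites. A TCF/LEF motif (ATCAAAG, either strand) was found in 15 sites (10.6%) and in 6.85% of windows. The CTCF core, searched on both strands as CCA, 2 free bases, AG, 2 free bases and GGC, was found in no site, and in 0.997% of windows. The median GC content was 43.6% in sites and 40.1% in windows. A match of letters is no evidence that a factor was bound. The windows were not matched to the sites for open chromatin or enhancers, so that their shares describe the sequence of the bins at large.

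Examples from the contact regions of 6 promoters are shown with every AP-1 match in capitals (2 at DCBLD2) and 30 bases on each side of the match nearest the site's centre, from hg38, plus strand, to let the motif be compared in its surroundings. They were picked from bins above and do not set these apart from other sites. Each lies in a bin above expected, with log2 ratios of 1.92 (PHLDA1, 371 kb downstream), 1.86 (KITLG, 354 kb upstream), 1.65 (ITPRID2, 100 kb upstream, the summit bin), 1.54 (HMGA2, 193 kb upstream) and 1.48 (DCBLD2, 60.9 kb upstream, the summit bin). The EREG site lies 300 kb downstream, in the summit bin described above.
PHLDA1, chr12:75660388-75660454: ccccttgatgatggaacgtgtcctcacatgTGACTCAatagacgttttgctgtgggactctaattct
EREG, chr4:74665563-74665629: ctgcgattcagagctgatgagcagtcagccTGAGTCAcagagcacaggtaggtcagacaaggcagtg
KITLG, chr12:88934592-88934658: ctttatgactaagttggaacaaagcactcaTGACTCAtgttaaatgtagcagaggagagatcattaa
ITPRID2, chr2:181791440-181791506: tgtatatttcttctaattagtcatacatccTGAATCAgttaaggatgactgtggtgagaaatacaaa
HMGA2, chr12:65631782-65631848: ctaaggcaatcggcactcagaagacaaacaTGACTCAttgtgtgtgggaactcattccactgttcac
DCBLD2, chr3:98962630-98962696: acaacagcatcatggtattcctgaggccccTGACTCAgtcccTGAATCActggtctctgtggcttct

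Not every strong contact carried such a site. Of the highest bins of 17 promoters, 6 held a listed SMC1A site (PHLDA1, EREG, ITPRID2, MYC, DCBLD2 and IRS1). Another 3 held a match to the CTCF core on the strand that faces the promoter (ERRFI1, SPRY4 and MTAP), and 1 a match that faces away (PCDH7). Over all bins above, 9.21% held a core match towards the promoter and 6.58% one away from it, against 11.9% and 11.7% of all bins, so that these letters were not more frequent in bins above. Among all bins the core thus faced the promoter about as often as away from it, and whether CTCF was bound was not tested. The matches in the 3 summit bins, at 284, 224 and 476 kb upstream, are shown 5′ to 3′ on the strand of the motif, with the 12 letters in capitals.
ERRFI1, chr1:8310509-8310580, minus strand: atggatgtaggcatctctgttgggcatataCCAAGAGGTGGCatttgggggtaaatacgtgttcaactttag
SPRY4, chr5:142548968-142549039, minus strand: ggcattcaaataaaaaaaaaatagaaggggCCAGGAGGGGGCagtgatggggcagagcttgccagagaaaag
MTAP, chr9:21326685-21326756, plus strand: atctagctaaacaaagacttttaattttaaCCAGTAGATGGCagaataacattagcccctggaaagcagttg

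Over all bins, the log2 ratio had little linear relation to base composition or to the density of cutting sites. Which bins were called above nevertheless depended in part on whether signal was counted per kb or per fragment. Across 1960 bins, which share libraries and viewpoints, the Pearson correlation of the log2 ratio with GC content was −0.0040 and that with the number of DpnII sites 0.10. Counted per DpnII fragment in place of per kb, 152 bins were again above expected, and 109 of them were the same bins (71.7% of either set).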

How the data were processed

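Capture-C had been carried out by the authors with DpnII on 3 DMSO replicates, described as biologically independent. The deposited signal was counted by the authors per DpnII fragment with CapCruncher on hg38 and scaled by 1 factor per viewpoint and library; the labels name bcl2fastq 2.17. All values (tolerance 0.01) were whole multiples of the smallest, which gave the interactions used as depth; intervals from them would cover counting error only. Reads were not processed again. The 6 treated columns of each file were not used. Start sites were those of GENCODE 44 (MANE Select, for PHLDA1 the Ensembl canonical transcript) and lay in the unlisted viewpoint gap of 0.619 to 3.80 kb at 19 of 20 promoters (not PCDH7).

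Promoters and bins were fitted with limma 3.58.1 in R 4.3.3, with library means removed for decay and share, a pseudocount of 1 and Benjamini-Hochberg adjustment over all 20 promoters or 1960 bins. edgeR 4.0.16 on the recovered interactions, other windows, bins, expected values, pseudocounts and filters, and leaving out each library were alternatives. Fits were tested on simulated data. Sequence was read with pysam 0.24.0, and Python 3.11.15 with matplotlib 3.10.9, pandas 2.3.3 and numpy 2.4.6 served for the rest. The called bin with the highest ratio at each promoter was named (the innermost bins only where no other was called), with full values for the 10 highest, and the lowest bins of 3 promoters. Promoters, lists and tests were chosen with earlier results of these data known.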

Additional observations from a re-analysis of the deposited data

How the results depend on the processing

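Leaving out 1 library gave 9 flatter and 7 steeper decays, 6 to 8 larger and 6 to 11 smaller shares, 12 to 14 promoters with more signal upstream and 5 to 6 downstream, and 152 to 155 bins above and 488 to 493 below. In these fits 2 libraries carry the spread. Without the replicate block (library means not removed), the number of smaller shares fell from 8 to 5, and EREG, IRS1, HS3ST1 and ITPRID2 lost their share calls, as SPRY4 lost its decay call. Bins of 5 kb gave 309 above and 1057 below of 3920, and bins of 25 kb 60 and 193 of 800, which are 7.88% and 27.0%, and 7.50% and 24.1%. With the median in place of the mean, 283 bins were above and 330 below, and with the promoter's own decay 263 and 247, with 126 of the 152 bins above and 223 of the 500 below in common. edgeR on interactions gave 157 and 484, and edgeR with the library as block gave 14 and 6 sides. The filter of 10 per kb removed no bin, so that it tests nothing.

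In 10-kb rings 10 promoters were steeper and 8 flatter, and beyond 25 kb 8 and 9. Signs turned for single promoters. Relative to the mean decay, EREG was at −0.013 in 10-kb rings, −0.00082 with a pseudocount of 5, and −0.010 to 0.011 when 1 replicate was left out (−0.00070 without replicate 1); ERRFI1 was at 0.00042 without replicate 3; SPRY4 was at −0.091 and TRIB1 at −0.089 in 10-kb rings, and SPRY4 at −0.0045 from the 5′ end of the gene. With signal on other chromosomes in the denominator, the log2 share relative to the mean turned to 0.073 at KITLG, 0.21 at IRS1, −0.15 at DDIT4, 0.13 at PCDH7, −0.056 at MTAP, 0.035 at HS3ST1 and 0.0068 at ITPRID2. Up to 200 kb, KRT19 had a log2 upstream over downstream signal of 0.29. The cause of these changes was not tested. Among named bins, 268 of 280 values under these alternatives kept direction and call. The 280 values include the filter that removed no bin, and the bins were picked as extremes from the same data. Counts of 12 to 32 interactions limit the deficits at ANGPT2, ERRFI1 and KRT80.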

Other observations

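Some profiles held a large drop in signal relative to that expected. As a description chosen after the profiles had been seen, with no test, each side of each promoter was searched for the largest drop in log2 ratio over expected between 2 neighboring stretches of 50 kb. The search returns a drop on every side (median −0.92), and means of 2 stretches cannot tell a step from a gradual fall. Signal per kb named here also contains the decay with distance. The deepest drops were 280 kb downstream of TRIB1, where signal fell from 911, 894 and 791 per kb in replicates 1, 2 and 3 to 207, 197 and 160, and 110 kb upstream of DCBLD2, from 1657, 1547 and 1284 to 247, 253 and 204. DDIT4 fell 80 kb downstream, from 1456, 1452 and 1243 to 222, 227 and 216. KRT19 (180 kb upstream), TRIB1 (340 kb upstream) and ITPRID2 (180 kb upstream) followed, with drops of −1.85 ± 0.095, −1.77 ± 0.35 and −1.67 ± 0.065 on the log2 scale (SD, n = 3). The deepest drop of TRIB1 and those of DCBLD2 and ITPRID2 lay at the same bin in all 3 libraries. Over all 40 sides, the position was the same bin in all libraries on 9 and matched within 10 kb on 22.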
